A study of Mus musculus with 6 samples.

Results

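Flt1 and 9 genes that belong to the same signaling axis or mark blood vessels were followed in laser-captured lacrimal gland buds of mouse embryos at E14.5. Flt1 was chosen by its higher counts in Pea3 TKO buds in this same comparison. The other 9 members were set beside it by name, as VEGF receptors (Kdr and Flt4), VEGF ligands (Vegfa, Vegfb, Vegfc and Pgf) and endothelial markers (Pecam1, Tek and Tie1). All 10 were among the 23420 gene symbols in the count tables, and 7 of them were among the 13087 genes with enough counts to test. The 3 control samples are labelled WT with the genotype Le-Cre, although the methods also allow controls that are heterozygous for the Pea3 family alleles, and the 3 Pea3 TKO samples carried Le-cre with Pea3-/-, Ermfl/fl and Er81fl/fl alleles, all on a mixed background. The Pea3 (Etv4) null allele was thus present in every tissue of the mutant embryo, whereas Erm (Etv5) and Er81 (Etv1) could be deleted only where the Le-Cre transgene is active, in the surface ectoderm that forms the conjunctiva and the lacrimal gland. The labels do not say whether a sample came from a single embryo or from pooled buds, so the p-values measure the spread between these samples, which may be partly technical.

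Vascular endothelial growth factors are secreted ligands that guide the growth of blood and lymphatic vessels. Kdr (VEGFR2) carries most of the growth signal of Vegfa in endothelial cells, Flt4 (VEGFR3) responds to Vegfc, and Flt1 (VEGFR1) binds Vegfa, Vegfb and Pgf tightly but signals weakly, so that it often acts as a trap for ligand. Flt1 is also made as a soluble form, and these counts per gene do not separate it from the membrane form. Epithelia are known as sources of Vegfa for the vessels around them, whereas the receptors are found mainly on endothelial cells.

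The tables held between 14194775 and 17860140 counts per sample, so that 3 counts corresponded to between 0.169 and 0.210 CPM, counts per 1000000 after TMM normalization. Where a value is 0, this is the level that the depth still allows in that library. Etv5 fell from between 961 and 1202 CPM in controls to between 88.2 and 177 CPM in Pea3 TKO, and Etv4 and Etv1 fell as well (edgeR quasi-likelihood test, adjusted p = 6.6e-05 for Etv5, 2.6e-04 for Etv4 and 4.3e-04 for Etv1). Transcripts counted as Etv4 were still found in the mutants, at 10.9, 19.1 and 28.4 CPM against 184, 129 and 140 CPM in controls. The epithelial marker Epcam lay between 1201 and 1500 CPM in the 6 samples. Cdh1 was higher in the mutants, at between 1034 and 1108 CPM against 458 to 572 CPM in controls. Its log2 fold change was 1.09 (SE 0.12, adjusted p = 4.1e-04, edgeR quasi-likelihood test). No pair of replicates was a copy, as their counts differed by 13.8 or more times the chi-square that sampling alone gives.

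Several libraries stood apart in ways that touch the results that follow. The sum of 11 mesenchymal markers, such as Col1a1, Col3a1 and Dcn, was 108, 119 and 217 CPM in the controls. In the mutants it was 521, 680 and 100.0 CPM, in order of replicate number. Vim, at between 84.7 and 104 CPM in every library, made up most of it in control replicates 1 and 2 and Pea3 TKO replicate 3. Col1a1 was 1.86, 4.74 and 18.9 CPM in controls and 54.5, 70.8 and 1.23 CPM in Pea3 TKO, so it also differed among the controls. Transcripts of 4 Y-linked genes summed to between 136 and 175 CPM in the controls and 139 CPM in Pea3 TKO replicate 3, but to 0.445 and 0.210 CPM in Pea3 TKO replicates 1 and 2. Those 2 libraries thus held almost no male tissue, whereas every control held some, so embryo sex is partly confounded with genotype. Pea3 TKO replicate 3 resembled the controls in both its mesenchymal and its Y-linked transcripts. In bulk samples such as these, fewer cells of a type and less RNA per cell cannot be told apart.

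Flt1 was almost absent from control buds and present in every Pea3 TKO bud. In order of replicate number, its counts were 2, 0 and 0 for the controls and 121, 309 and 542 for the mutants. Normalized, this was 0.113, 0 and 0 CPM in controls against 7.68, 21.6 and 31.8 CPM in Pea3 TKO. The groups did not overlap, the Pea3 TKO replicates differed from each other by several fold, and the highest value came from the mutant library that was most like the controls in its mesenchymal and Y-linked transcripts. The mean was 0.0376 ± 0.0651 CPM in controls and 20.4 ± 12.1 CPM in Pea3 TKO (SD, n = 3 each). Over all libraries of a group, 972 counts in Pea3 TKO stood against 2 in controls, a ratio of 508 with a 95% counting interval from 140 to 4197 (exact binomial, covering counting error only). The fitted log2 fold change of 8.72 (SE 0.87) depends on the small count that the fit adds to such genes and placed Flt1 at number 11 of 13087 tested genes from the highest. Since Flt1 was chosen for this difference, these values are a description, and no test is given.

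**Figure D1:**
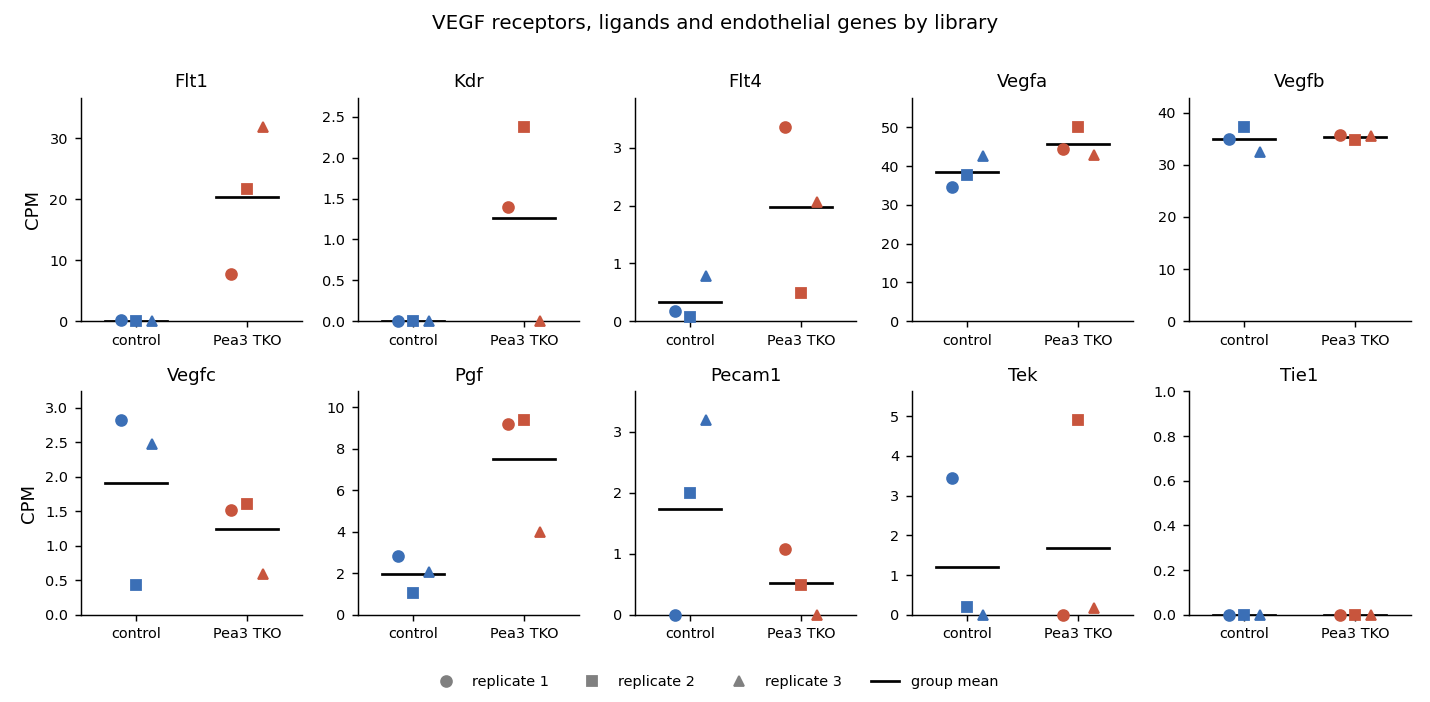
Level of each of the 10 genes in CPM (vertical axes, each on its own linear scale from 0) in 3 control and 3 Pea3 TKO libraries; points are libraries, with a symbol for each replicate, and black lines are group means. Flt1 lies at 7.68 to 31.8 CPM in Pea3 TKO and at or near 0 in controls, while Pecam1, Tek and Tie1 stay below 5 CPM in every library.

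Flt1 lies on the minus strand of chromosome 5, from 147561604 to 147726011 (GENCODE M21, GRCm38), and no other annotated gene overlaps it. The 250 bases before its RefSeq start are shown because Pea3 proteins are ETS factors, which bind sites with a GGAA core, beside the same window of Kdr, the receptor with no count in controls, and of the first of 2 Vegfa starts, the ligand with the second highest level. Capitals mark GGAA on either strand, so that TTCC is a site on the strand not shown. The windows are chr5:147726012-147726261 for Flt1, chr5:75978456-75978705 for Kdr and chr17:46032378-46032627 for Vegfa, all on the minus strand, written 5′ to 3′ from RefSeq (GRCm38.p6).
Flt1: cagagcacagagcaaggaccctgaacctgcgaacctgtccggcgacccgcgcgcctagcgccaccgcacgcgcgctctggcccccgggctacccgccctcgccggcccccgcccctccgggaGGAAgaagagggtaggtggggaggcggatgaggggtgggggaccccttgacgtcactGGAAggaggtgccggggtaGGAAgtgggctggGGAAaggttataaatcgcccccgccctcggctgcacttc
Kdr: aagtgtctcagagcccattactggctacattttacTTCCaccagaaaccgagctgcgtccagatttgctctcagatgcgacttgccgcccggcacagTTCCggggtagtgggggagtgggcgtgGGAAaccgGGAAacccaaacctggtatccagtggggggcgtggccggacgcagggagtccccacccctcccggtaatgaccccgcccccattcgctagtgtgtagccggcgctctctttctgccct
Vegfa: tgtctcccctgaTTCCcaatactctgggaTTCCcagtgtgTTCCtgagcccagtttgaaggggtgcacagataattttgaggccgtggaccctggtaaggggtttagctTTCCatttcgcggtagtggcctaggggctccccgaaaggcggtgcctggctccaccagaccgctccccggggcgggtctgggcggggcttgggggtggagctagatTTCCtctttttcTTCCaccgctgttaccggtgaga
The Flt1 window held GGAA 4 times, as did that of Kdr, and the Vegfa window held it 6 times. This core is common, since 93.4% of the 32851 promoter windows of this length contain it, with a median of 3 matches. The longer form GGAAG, which includes the core, occurred 3 times for Flt1 and 1 time each for Kdr and Vegfa, and was present in 64.1% of all windows. None of these windows held CCGGAAG, which 6.91% of all windows contain. The Flt1 window also held TGACGTCA, the palindromic cyclic AMP response element, found in 1.55% of windows, and TATAAA, found in 12.4%, whereas the Kdr and Vegfa windows held neither. None of the 3 windows shown held ACGTG, a form of the core of the hypoxia response element, which 16.6% of windows contain. The form GCGTG, which the Flt1 and Kdr windows hold on either strand, was not counted over all windows. The window of the second Vegfa start, which is not shown, held ACGTG 1 time and GGAA 2 times. Of the 10 genes 9 had a promoter sequence in the table used here, and neither of the Pgf windows contained GGAA. The window of Tie1, also not shown, held GGAA 7 times and GGAAG 6 times, more than that of Flt1. Tie1 had 0 counts in all 6 libraries. These matches describe letters in a short window and do not show binding.

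Of the other VEGF receptors, Flt4 did not pass the test and Kdr had too few counts to be tested. Kdr had 0 counts in all 3 controls and 22, 34 and 0 counts in Pea3 TKO, which is 1.40, 2.38 and 0 CPM. The groups overlapped because Pea3 TKO replicate 3, the library with the most Flt1, had no Kdr at all. In the fit without a low-count filter its adjusted p was 0.042 (edgeR quasi-likelihood test). In the same test it was 0.017 without Pea3 TKO replicate 3, but 0.072, 0.11 and 0.11 without control replicates 1, 2 and 3. All counts of Kdr came from Pea3 TKO replicates 1 and 2, so nothing is read from these fits. Flt4 had 0.169, 0.0623 and 0.780 CPM in controls and 3.37, 0.490 and 2.06 CPM in Pea3 TKO. Its groups overlapped as well, since Pea3 TKO replicate 2 lay below control replicate 3, and its log2 fold change was 2.54 (SE 1.05, adjusted p = 0.11). The co-receptor Nrp1, which presents Vegfa to Kdr, ranged from 0.810 to 2.99 CPM in controls and from 0.411 to 3.87 CPM in Pea3 TKO, with a log2 fold change of 0.59 (SE 0.85, adjusted p = 0.65). Nrp2, its relative in lymphatic vessels, never exceeded 1.07 CPM and was not tested.

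Among the ligands, Pgf rose and the abundant ones passed no test. Pgf encodes placental growth factor, a ligand of Flt1 that does not bind Kdr. It had 2.82, 1.06 and 2.08 CPM in controls and 9.21, 9.37 and 3.99 CPM in Pea3 TKO. All Pea3 TKO values lay above all controls, with the library that had the most Flt1 being the lowest of the mutants for Pgf. The log2 fold change was 1.91 (SE 0.53, adjusted p = 0.027, edgeR quasi-likelihood test). This call was lost when control replicate 2, control replicate 3, Pea3 TKO replicate 1 or Pea3 TKO replicate 2 was left out (adjusted p between 0.070 and 0.094), and with a covariate for Y-linked expression (log2 fold change 1.0, adjusted p = 0.45). Among the mutants, Pgf had the same order as the mesenchymal sum, and the part of mesenchymal transcripts in its rise was not tested.

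Vegfa, the main vessel growth factor, had 34.6, 37.8 and 42.7 CPM in controls and 44.3, 50.1 and 42.8 CPM in Pea3 TKO. The groups were separated only by the narrow gap between control replicate 3 and Pea3 TKO replicate 3, and the log2 fold change of 0.25 (SE 0.15) did not pass the test (adjusted p = 0.25). Vegfb, a ligand that binds Flt1 but not Kdr, was the steadiest member at 35.1, 37.3 and 32.6 CPM in controls and 35.8, 34.8 and 35.6 CPM in Pea3 TKO. Its log2 fold change was 0.02 (SE 0.15, adjusted p = 0.95). Vegfc, the ligand of Flt4 in lymphatic growth, was low, between 0.436 and 2.82 CPM in controls and between 0.587 and 1.61 CPM in Pea3 TKO, with a log2 fold change of -0.62 (SE 0.81, adjusted p = 0.62). Vegfd, listed under its older symbol Figf, had at most 7 counts in a library and was not tested. Thus 1 of the 5 tested VEGF family members besides Flt1 was called, by edgeR as by DESeq2. Of all 13087 tested genes edgeR called 25.0%, with 13.6% called higher, and DESeq2 called 3930. With Flt1 included, 3 of the 6 tested family members (Flt1, Pgf and Vegfa) lay wholly above the controls. Groups did not overlap for 43.9% of all tested genes, 22.5% with Pea3 TKO above, and nothing is read from these shares, since the comparison itself chose Flt1.

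The endothelial markers were low in both groups. Pecam1 (CD31), an adhesion protein at endothelial junctions, had 0, 1.99 and 3.19 CPM in controls and 1.08, 0.490 and 0 CPM in Pea3 TKO. Pea3 TKO replicate 3, with 542 counts of Flt1, had no count of Pecam1. Its log2 fold change was -1.71 (SE 1.44, adjusted p = 0.43). Tek (Tie2), the angiopoietin receptor of endothelial cells, reached 3.44 CPM in control replicate 1 and 4.89 CPM in Pea3 TKO replicate 2 and was at 0.187 CPM or less in the other 4 libraries. Its high values thus came from 1 library of each group, and it was too low to test. Tie1, the endothelial partner of Tek, had 0 counts in all 6 libraries. Of the 3 endothelial members only Pecam1 could be tested, and 0 were called by edgeR or DESeq2, with 0 at an unadjusted p under 0.05. Of all tested genes edgeR called 25.0%. A single tested gene does not describe the group.

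Most genes of a wider endothelial list also had very low counts. With the 3 members it held 27 genes, of which 15 were below 1 CPM in every library and 4, Tie1, Emcn, Robo4 and Icam2, had no count in any. Cdh5, the cadherin that defines endothelial junctions, had 1 count in all, in Pea3 TKO replicate 1. The summed level of the list was 57.6, 49.1 and 45.2 CPM in controls and 43.2, 60.0 and 45.7 CPM in Pea3 TKO. These ranges overlapped almost fully, and most of the sum came from Egfl7, at between 16.7 and 31.1 CPM, and Rasip1, at between 5.85 and 10.6 CPM. Of the 11 tested genes 1 was called, where 25.0% of all tested genes were. This was Ramp2, which encodes a receptor partner for adrenomedullin, with 0.113, 0.935 and 0.520 CPM in controls and 3.37, 3.22 and 3.41 CPM in Pea3 TKO (log2 fold change 2.66, SE 0.78, adjusted p = 0.032). The median log2 fold change of the 11 was 0.38, against 0.01 over all tested genes. Of the 27 genes, 2 lay wholly above the controls in Pea3 TKO and 3 wholly below. Over all tested genes, groups did not overlap for 43.9%, 22.5% with Pea3 TKO above. The 27 include genes too low to test, whereas those shares cover tested genes only. The 2 above were Ramp2 and Lmo2 (log2 fold change 1.94, SE 1.05, adjusted p = 0.21, edgeR quasi-likelihood test). The 3 below were Eng, a TGF-beta co-receptor (log2 fold change -1.67, SE 0.61, adjusted p = 0.072), Egfl7 (-0.48, SE 0.21, adjusted p = 0.12) and Plvap. Plvap had at most 8 counts in a library and was not tested. Lymphatic markers did not pass the test either. Lyve1 had counts only in Pea3 TKO replicate 1, Prox1 had a log2 fold change of 1.43 (SE 0.64, adjusted p = 0.13) and Pdpn, which epithelia also express, one of 0.13 (SE 0.17, adjusted p = 0.63).

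Levels can be compared between genes only per length, here as CPM per kb of merged exons (GENCODE M21). In controls the order was Vegfb at 21.8 ± 1.5, Vegfa at 8.96 ± 0.95, Vegfc at 0.779 ± 0.525 and Pgf at 0.684 ± 0.304 CPM per kb (SD, n = 3), with Pecam1, Tek, Flt4 and Flt1 following and Kdr and Tie1 at 0. From Vegfc downwards every neighbour in this order overlapped the next in range. In Pea3 TKO the order was Vegfb at 22.0 ± 0.3, Vegfa at 10.7 ± 0.9, Pgf at 2.59 ± 1.05 and Flt1 at 1.51 ± 0.90 CPM per kb. Flt1 thus stood above the other receptors in the mutant mean, with Flt4 at 0.239 ± 0.175 and Kdr at 0.139 ± 0.132 CPM per kb, but below the ligands Vegfb and Vegfa in every Pea3 TKO library. Pgf and Flt1 overlapped in range, as did Flt1 and Vegfc.

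**Figure D2:**
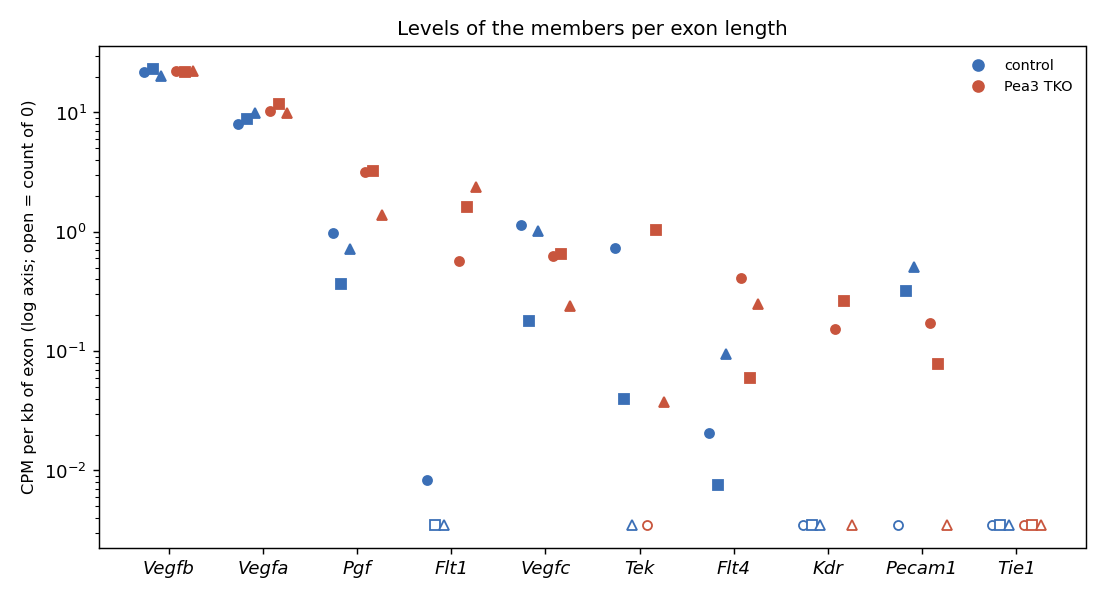
Level of each gene in CPM per kb of merged exons (log axis) in 3 control and 3 Pea3 TKO libraries, ordered by the Pea3 TKO mean; circles, squares and triangles are replicates 1, 2 and 3, and open symbols at the bottom are counts of 0. Flt1 moves from the bottom of the range in controls to a mean of 1.51 in Pea3 TKO, whereas Vegfb and Vegfa stay at the top in both groups.

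Angiopoietins act on the same vessels through Tek. Angpt2, the ligand that loosens vessels and is typically made by endothelial cells, rose from 0.902, 0.623 and 0.780 CPM in controls to 11.8, 16.9 and 11.9 CPM in Pea3 TKO. The groups were far apart and the mutants close to each other, with a log2 fold change of 4.12 (SE 0.39, adjusted p = 1.6e-04). Angpt2 lies on chromosome 8 inside Mcph1, which is on the opposite strand, and the strand setting of the counting is not given in the sources used here. Mcph1 itself went the other way, from 51.7 ± 1.9 to 40.8 ± 5.8 CPM (SD, n = 3 each, adjusted p = 0.13). Angpt1, Angpt4 and the Tie phosphatase Ptprb had at most 5 counts in any library and were not tested.

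Of 15 tested signal transducers downstream of the receptors 2 were called higher, close to the 13.6% of all tested genes. These were the Src family kinase Fyn (log2 fold change 0.64, SE 0.16, adjusted p = 0.020) and the GTPase Cdc42 (0.35, SE 0.12, adjusted p = 0.0498). Plcg1, the phospholipase that binds activated Kdr, had a log2 fold change of -0.15 (SE 0.15, adjusted p = 0.51), and the median of the list was -0.01. Genes known to respond to VEGF in sprouting endothelium showed no common direction. Unc5b rose (log2 fold change 1.09, SE 0.27, adjusted p = 0.017), Cxcr4 fell by 2.93 on the log2 scale (SE 0.45, adjusted p = 0.0019), Notch4 and Apln did not pass, and the Vegfa-induced Notch ligand Dll4 had no count in any library. The median of the 4 tested was 0.04.

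The hypoxia pathway is the best known inducer of Vegfa, and Flt1 responds to it too. Of 17 tested genes 6 were called, all higher, beside 13.6% of all tested genes, and the median log2 fold change of the list was 0.36 against 0.01 over all. Slc2a1, the glucose transporter, rose from between 182 and 209 CPM to between 361 and 422 CPM (log2 fold change 1.01, SE 0.11, adjusted p = 4.3e-04). Epas1, which encodes HIF-2α, rose from at most 0.338 CPM in controls to 3.81, 2.31 and 2.35 CPM (log2 fold change 3.50, SE 0.81, adjusted p = 0.013), and Ndrg1, Egln3, Ankrd37 and Pdk1 were also higher. Other common targets did not pass, with log2 fold changes of -0.02 (SE 0.14, adjusted p = 0.93) for Pgk1, 0.24 (SE 0.13, adjusted p = 0.20) for Ldha and 0.27 (SE 0.17, adjusted p = 0.29) for Bnip3, and Car9 was at most 2.23 CPM in any library. Hif1a had a log2 fold change of -0.32 (SE 0.13, adjusted p = 0.11). Whether these genes have a part in the level of Flt1 was not tested.

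**Figure D3:**
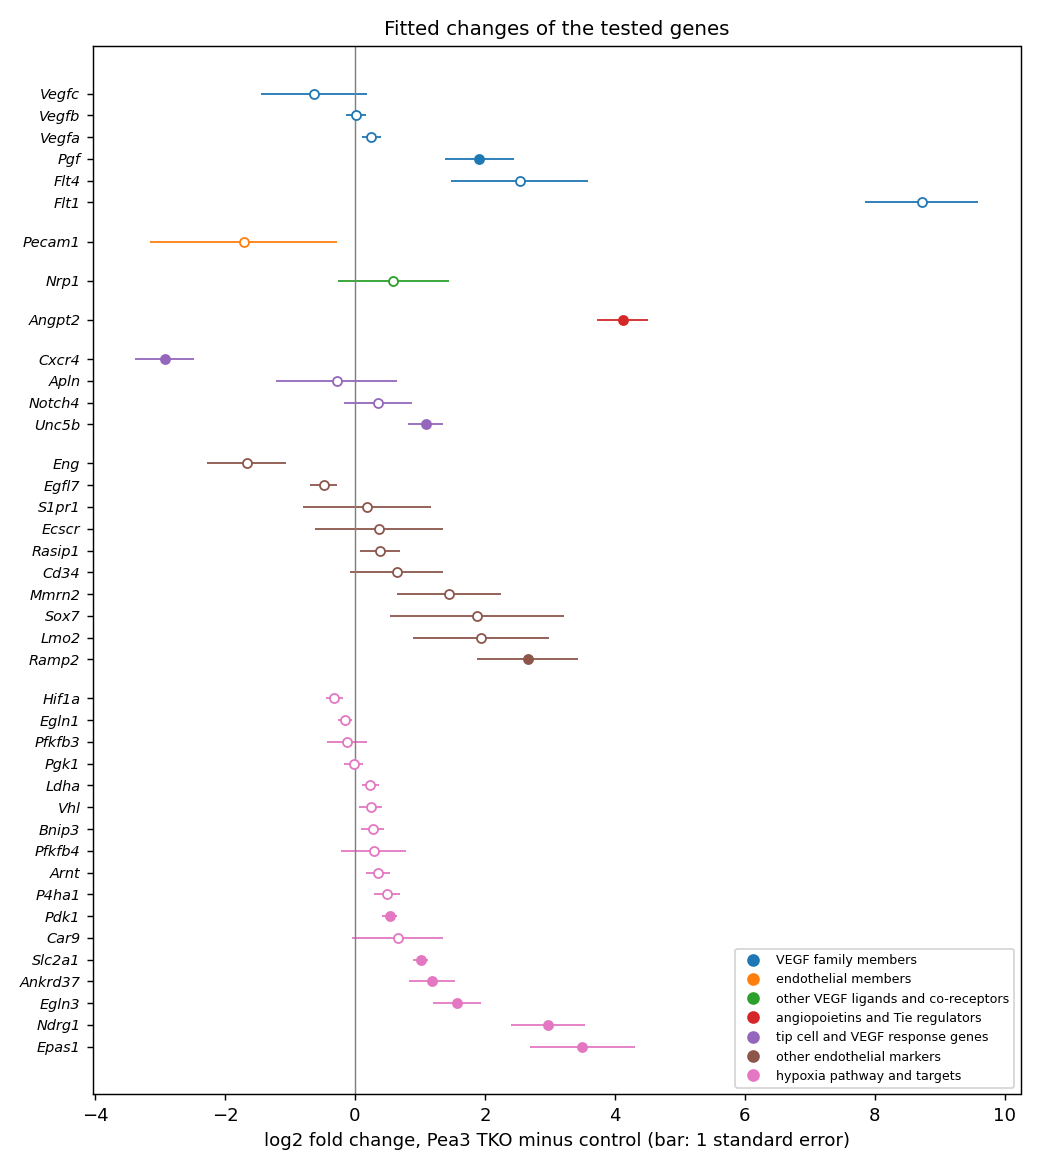
Fitted log2 fold change, Pea3 TKO minus control, of the tested members and of the tested genes in the related lists (horizontal axis, bars of 1 standard error, colors by list); filled circles had an adjusted p under 0.05, and Flt1 has an empty circle because it was chosen on this contrast. Flt1 at 8.72 and Angpt2 at 4.12 lie far to the right of Vegfa at 0.25 and Vegfb at 0.02.

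Other cells that can carry Flt1 or surround vessels were examined through their markers, and their part in the level of Flt1 was not tested. The sum of 10 myeloid markers was 26.6, 1.06 and 17.9 CPM in controls and 25.0, 4.41 and 1.64 CPM in Pea3 TKO. Csf1r, the receptor that defines macrophages, was at 0 in control replicate 2 and Pea3 TKO replicate 3 and at between 0.699 and 10.99 CPM in the other 4 libraries. Of the 5 tested myeloid genes 0 were called by edgeR or DESeq2, and 0 had an unadjusted p under 0.05, where 25.0% of all tested genes were called by edgeR. The sum of 10 erythroid markers, mostly Hbb-y, was 122, 46.7 and 36.7 CPM in controls and 52.2, 61.3 and 239 CPM in Pea3 TKO. Among the adult globin genes, Hba-a1, Hba-a2 and Hbb-b2 had no count in any library and Hbb-b1 had 1. Hbb-bs and Hbb-bt were not among the gene symbols. This sum therefore hardly covers adult globin transcripts. It was highest in Pea3 TKO replicate 3, the library with the most Flt1, and second highest in control replicate 1, which had 2 counts of Flt1. Of the 3 tested erythroid genes 0 were called by edgeR or DESeq2, and 0 had an unadjusted p under 0.05, beside the same 25.0% of all genes.

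Mural cells, the contractile cells around vessels, gave a mixed result. Of 7 tested markers 4 were called, where 25.0% of all tested genes were. Those higher were Acta2 (log2 fold change 2.98, SE 0.33, adjusted p = 3.9e-04), Tagln (2.63, SE 0.36, adjusted p = 9.99e-04) and Rgs5 (5.10, SE 0.66, adjusted p = 7.7e-04), and Mcam was lower (-1.0, SE 0.15, adjusted p = 0.0016). Acta2 rose from 6.37, 6.98 and 3.19 CPM to 58.7, 36.6 and 35.9 CPM, so that it moved in all mutant libraries, as Flt1 did. Among the mutants Acta2 was highest in replicate 1, where Flt1 was lowest. Rgs5 rose from 0.282, 0.0623 and 0.195 CPM to 5.21, 6.71 and 7.52 CPM, with the same order among the mutants as Flt1. Pdgfrb, a marker of pericytes, had 3.83, 3.49 and 3.84 CPM in controls and 1.65, 4.96 and 2.23 CPM in Pea3 TKO (adjusted p = 0.69). The summed level of the 9 markers, most of it Mcam, ranged from 214 to 229 CPM in controls and from 160 to 221 CPM in Pea3 TKO. Of 10 tested mesenchymal markers 2, Dcn and Lum, were called higher, beside 13.6% of all tested genes. Both were high in Pea3 TKO replicates 1 and 2, at between 60.5 and 79.9 CPM, and at 2.41 and 2.06 CPM in replicate 3, so that Flt1 was highest where they were lowest among the mutants. Of the 8 epithelial markers 6 were called higher, beside the same 13.6%, and their median log2 fold change was 1.09 against 0.01 over all tested genes. Their summed level lay between 3035 and 3767 CPM in controls and between 5373 and 6295 CPM in Pea3 TKO.

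**Figure D4:**
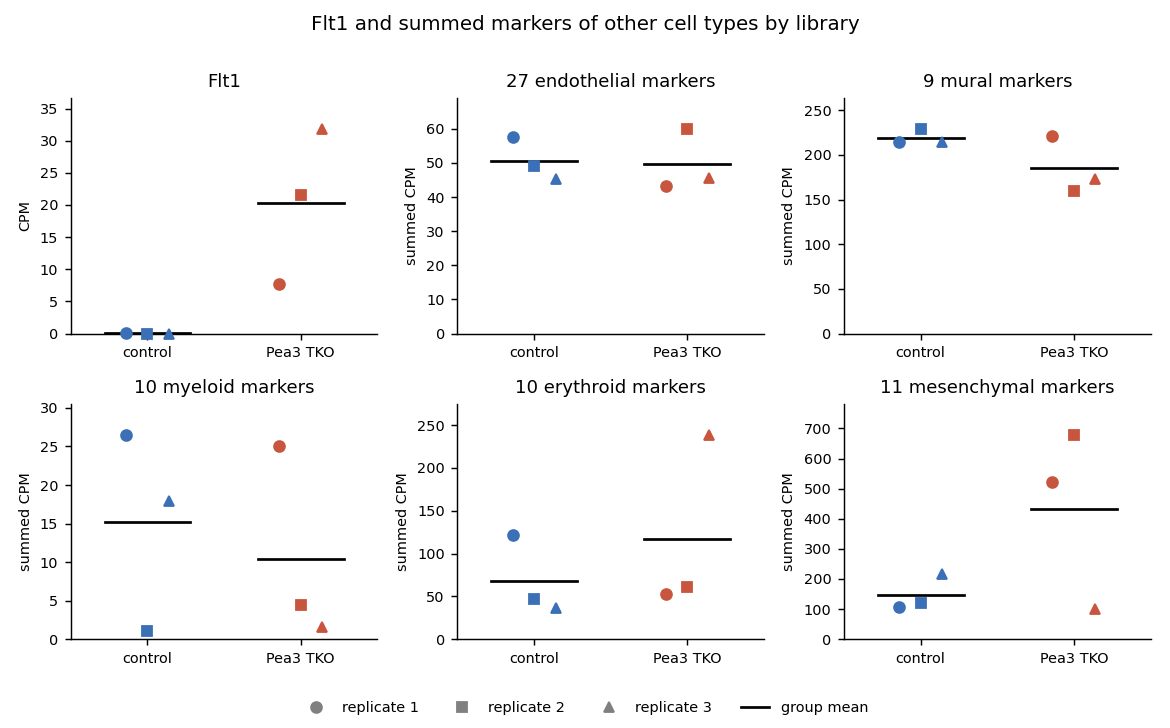
Flt1 in CPM and the summed CPM of marker lists for other cell types (vertical axes from 0) in 3 control and 3 Pea3 TKO libraries; points are libraries, with a symbol for each replicate, and black lines are group means. The endothelial sum lies between 43.2 and 60.0 CPM in all 6 libraries, and the mesenchymal sum is lowest among the mutants in replicate 3, where Flt1 is highest at 31.8 CPM.

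The genes whose pattern lay nearest to that of Flt1 were sought among 10786 other tested genes with a mean of at least 5 CPM, by the root mean square difference of log2 CPM centered over the 6 libraries. They were Tnc (0.51), Serpina3g (0.56), Rgs4 (0.59), Serpinb8 (0.61) and Oas1a (0.63). Tnc encodes the matrix protein tenascin-C and had 0, 0.0623 and 0 CPM in controls and 5.21, 16.3 and 18.4 CPM in Pea3 TKO, lowest in replicate 1 and highest in replicate 3 of the mutants, like Flt1. Rgs4, a regulator of G-protein signaling, had 0 counts in every control and 10.8, 31.7 and 17.2 CPM in Pea3 TKO. This is a likeness of pattern over 6 libraries, dominated by the step between groups.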

How the data were processed

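Lacrimal gland buds of 3 control and 3 Pea3 TKO samples were isolated by laser capture from frozen embryos. Per the labels, RNA was handled with the Nugen Ovation RNA-seq system, which amplifies cDNA, and libraries were made with the Illumina TruSeq kit after poly-A enrichment. The authors deposited unnormalized read counts for each gene symbol in separate tables for the 6 samples. The processing notes of the submitters name bcl2fastq 2.17, STAR 2.5.2b, featureCounts 1.5.0-p3, DESeq and mm10. The annotation and the strand setting are not given in the sources used here.

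Genes were kept by filterByExpr of edgeR 4.0.16 (R 4.3.3), which retained 13087 of 23420, normalized by TMM and tested over all 6 samples with the edgeR quasi-likelihood test, condition being the only term, and Benjamini-Hochberg adjustment over all tested genes. A gene was called at an adjusted p under 0.05. The SE of a log2 fold change is its size divided by the square root of F. Low genes such as Kdr, Tek and Tie1 did not pass the filter. The script was tested on simulated data. Reads without molecular identifiers are not independent molecules, so counting intervals cover counting error only.

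The members and gene lists were chosen with earlier results of these data known. Named genes are the members, the targeted genes, the tested genes among the other VEGF ligands, co-receptors and angiopoietins, up to 4 genes of each other list (highest mean CPM and smallest p first), and the 5 nearest to Flt1. Mcph1, untested genes and the further genes of the hypoxia, signaling and marker lists were named after their values had been seen. Alternatives were DESeq2 1.42.0, other size factors and filters, the replicate number as a block, a covariate of log2 summed Y-linked CPM with 1 added, and leaving out each sample.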

Additional observations from a re-analysis of the deposited data

How the results depend on the processing

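The fitted log2 fold change of Flt1 was positive under all 13 alternatives and moved by more than its standard error in 1 of them, since without single samples it ranged from 8.23 to 11.32, the top value being that without control replicate 1, which held the only control counts. The number of VEGF family members called besides Flt1 ranged from 0 to 2 without single samples, 0 without control replicate 2, control replicate 3, Pea3 TKO replicate 1 or Pea3 TKO replicate 2, and 2 without Pea3 TKO replicate 3, where Kdr joined Pgf. It was 2 without a low-count filter, again with Kdr, and 0 with the Y-linked covariate. The log2 fold change of Vegfb changed sign to -0.035 without control replicate 3 and reached 0.064 without control replicate 2. Over all genes, 3268 were called, between 1948 and 3344 without single samples, fewest without control replicate 3 (1948), control replicate 2 (1963) and Pea3 TKO replicate 2 (2072), and 778 with the Y-linked covariate. The cause of these changes was not tested. A replicate block left 3191 genes called, and Flt1 then had a log2 fold change of 8.56, and the block changed no call of a member. Deviations from the group means correlated at 0.14, -0.06 and 0.05 for the replicate numbers 1 to 3, and 1 of 3 controls correlated best with its own number. With 3 samples per group these values cannot settle whether the numbers pair the samples, and the labels do not say. DESeq2 called 2 of the other endothelial markers and 3930 genes in all, where edgeR called 1 and 3268. No endothelial member was called under the alternatives run. At these depths, levels under about 0.2 CPM could not be told from 0.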
